A study of Mus musculus with 6 samples.

Results

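Astrocytes are the glial cells that enwrap synapses and blood vessels, clear glutamate and potassium from the extracellular space, and supply neurons with metabolites. The levels of 10 astrocyte genes were compared in the prefrontal cortex (PFC) of WT mice, P301S Tau mice and P301S Tau mice treated with UNC0642, out of 54429 gene symbols counted, of which 20409 passed the filter on low counts. All 10 passed it. Etnppl and Kcnj10 were set against Gfap, Aqp4, Slc1a2, Slc1a3, Aldh1l1, S100b, Gja1 and Gjb6. The genes were matched by symbol, and Etnppl and Kcnj10 were singled out because of their fold changes in these same 6 libraries, so the members were chosen by values measured here. They are described without p-values, and where one is said to pass the call threshold (unadjusted p below 0.05 and at least 1.2-fold) this sorts the values and is no support for a change. In the text, treated Tau mice are those given UNC0642.

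The 6 libraries came from 3 groups of 2 mice at 6 months of age: WT mice (C57BL/6 x C3H) given vehicle, PS19 (P301S) mice given vehicle, and PS19 (P301S) mice given UNC0642. The P301S Tau line carries mutant human tau under the mouse prion promoter, which is active in many cell types of the brain, and UNC0642 is a small-molecule inhibitor of the histone methyltransferases EHMT1 and EHMT2, which deposit H3K9me2, a mark of silenced chromatin. The treatment was a short course of injections. WT mice given UNC0642 were not analysed here, so the inhibitor can be compared only within the Tau genotype. The RNA was that of total tissue lysate. In such bulk RNA, fewer astrocytes and less RNA per astrocyte cannot be told apart.

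Library totals ran from 17005664 to 28972176 counts. Libraries stood apart in 3 ways that touch the values below. Prnp, whose promoter drives the transgene, had 1652 CPM (counts scaled to the size of the library) in the library labelled WT replicate 1 and 873 in WT replicate 2, against 1470 to 1694 in the Tau libraries of both treatments, so the first WT library was not like its partner in this respect, and the comparison of Tau with WT is also given without it for the 10 genes and for other results that it changes. Mapt was at 449 CPM in WT replicate 2 and at 571 to 614 in the other 5 libraries. Tau replicate 2 had the highest level of 16 oligodendrocyte genes, with a summed 6002 CPM against 1602 to 3210 in the other 5 libraries, and of 9 striatal genes, with 397 against 177 to 215. Xist and Ddx3y gave a female pattern in WT replicate 2 and both vehicle-treated Tau libraries and a male pattern in WT replicate 1 and both UNC0642 libraries. The comparison of UNC0642-treated with vehicle-treated Tau mice thus coincided with this pattern, and the part of sex and of treatment cannot be told apart by it alone. Ehmt1 was at 43.6 to 49 CPM and Ehmt2 at 131 to 161 CPM.

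Etnppl encodes ethanolamine-phosphate phospho-lyase, which breaks down phosphoethanolamine, an intermediate in the making of membrane phospholipids. Kcnj10 encodes the inward rectifier potassium channel through which astrocytes take up potassium released by firing neurons. It is also expressed in oligodendrocytes. Both are widely used as genes of mature astrocytes. Etnppl lies on chromosome 3 (GRCm38 chr3:130617448-130637521, plus strand) and Kcnj10 on chromosome 1 (chr1:172341210-172374085, plus strand), and neither overlaps another gene in the GENCODE annotation.

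The sequences just upstream of the 2 genes are shown because these genes moved in opposite directions. Each is the 250 bases before the annotated start (RefSeq, GRCm38.p6, plus strand, 5′ to 3′), with every CpG in capitals. The Kcnj10 sequence is chr1:172340960-172341209, and the Etnppl sequence, upstream of the first of its 2 annotated starts, is chr3:130617198-130617447.
Kcnj10: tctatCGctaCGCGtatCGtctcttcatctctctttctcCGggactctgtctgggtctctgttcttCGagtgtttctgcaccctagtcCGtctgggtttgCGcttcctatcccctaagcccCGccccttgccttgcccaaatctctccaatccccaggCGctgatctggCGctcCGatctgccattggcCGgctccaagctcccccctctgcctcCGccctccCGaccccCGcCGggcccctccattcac
Etnppl: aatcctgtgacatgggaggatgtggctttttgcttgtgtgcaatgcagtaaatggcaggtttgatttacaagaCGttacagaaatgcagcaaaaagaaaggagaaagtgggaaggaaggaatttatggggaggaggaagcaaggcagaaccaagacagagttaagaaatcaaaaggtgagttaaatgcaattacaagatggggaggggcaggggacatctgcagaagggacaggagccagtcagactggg

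The Kcnj10 sequence held 17 CpG dinucleotides and had a GC content of 62%, and the Etnppl sequence held 1 CpG and had a GC content of 46%. CG reads the same on both strands. Over 32851 promoters of the same length, 92.1% held at least 1 CpG, the median was 6, and 78.3% held as few as Kcnj10 or fewer, against 18.8% for Etnppl. Of the other genes, Slc1a2 had 1 CpG, Gfap, Slc1a3 and S100b had 2 each, Gjb6 had 5, Gja1 had 6 and Aldh1l1 had 7, so Kcnj10 had the most among the 9 genes with a promoter entry. For Gfap, Slc1a2 and Aldh1l1 the RefSeq start lay inside the gene as annotated by GENCODE, so their windows are not upstream of the whole gene. The matches are a description of these windows.

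Etnppl was lowest in Tau mice and highest after UNC0642. It had 119 counts in each WT library (4.69 and 4.65 CPM), 71 and 50 counts in Tau replicates 1 and 2 (2.54 and 2.86 CPM), and 194 and 250 counts in UNC0642 replicates 1 and 2 (11.5 and 11 CPM). The 3 groups did not overlap, and the 2 libraries of a group lay close together in each. The exact 95% Poisson intervals ran from 1.98 to 3.77 CPM over both Tau libraries, from 3.85 to 5.61 over both WT libraries and from 9.7 to 13.2 over both UNC0642 libraries, and those of different groups did not overlap. These intervals cover counting error only.

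**Figure D1:**
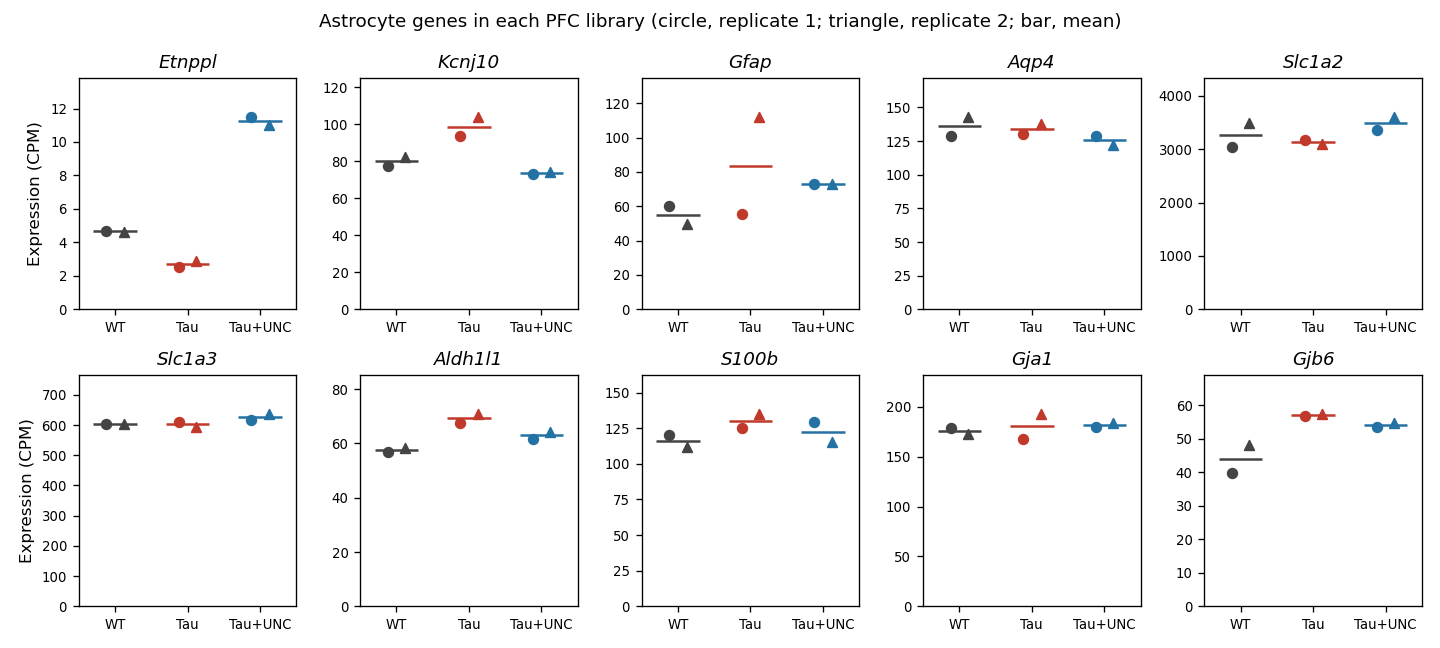
Expression in CPM (linear axes from 0) of each of the 10 astrocyte genes in the 6 PFC libraries, with circles for replicate 1, triangles for replicate 2 and bars for group means. Etnppl went from 4.65 to 4.69 in WT to 2.54 to 2.86 in Tau and 11 to 11.5 in UNC0642-treated Tau mice, and Kcnj10 was highest in the Tau libraries.

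On the log2 scale, Etnppl was lower in Tau than in WT mice by a fitted difference of -0.80 (SE 0.20), higher in UNC0642-treated than in vehicle-treated Tau mice by 2.06 (SE 0.20), and higher in UNC0642-treated Tau than in WT mice by 1.27 (SE 0.18). The level after UNC0642 was 4.18-fold that of Tau mice and 2.41-fold that of WT mice, so it did not stop at the WT level. The Tau level was 1.74-fold below that of WT. As each library was left out in turn, the first difference stayed within -0.87 to -0.71, the second within 1.97 to 2.14 and the third within 1.24 to 1.30. Without the library labelled WT replicate 1 the differences from WT were -0.79 and 1.27. Among all genes tested, 131 had a larger absolute fold change after UNC0642 and 2034 had a larger one in the comparison of Tau with WT mice.

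WT was the only group with both sex-linked patterns, 1 library of each, and the one with the male pattern was the library with the Tau-like Prnp level. WT replicate 2, with the female pattern, differed from WT replicate 1, with the male pattern, by -0.013 on the log2 scale for Etnppl. Within the female pattern Tau mice differed from WT by -0.77, within the male pattern UNC0642-treated Tau mice differed from WT by 1.25, and with a term for the pattern in the model the difference between treated and untreated Tau mice was 2.05 (SE 0.34). These values all rest on that 1 pair of WT libraries, and the part of sex in the difference after UNC0642 cannot be told apart from that of the treatment.

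Kcnj10 took the opposite course, with smaller changes at a higher level. It had 77.7 and 82.4 CPM in WT, 93.5 and 104 CPM in Tau, and 73.1 and 74 CPM in the treated Tau mice. Both Tau libraries were above all others and both UNC0642 libraries below all others, so no 2 groups overlapped. The fitted log2 difference was 0.30 (SE 0.086) between Tau and WT mice, -0.42 (SE 0.086) between UNC0642-treated and vehicle-treated Tau mice, and -0.12 (SE 0.086) between UNC0642-treated Tau and WT mice, the last of which did not pass the threshold.

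As each library was left out in turn, the Kcnj10 difference after UNC0642 ran from -0.50 to -0.35, and that between Tau and WT mice from 0.23 to 0.37. The latter was 0.26 without the library labelled WT replicate 1 and 0.23 without Tau replicate 2, and neither passed the threshold, the 1.2-fold change being 0.263 on the log2 scale. With a term for the sex-linked pattern, which again rests on the pair of WT libraries, it was 0.26 and did not pass, and the difference after UNC0642 was -0.34 (SE 0.14).

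**Figure D2:**
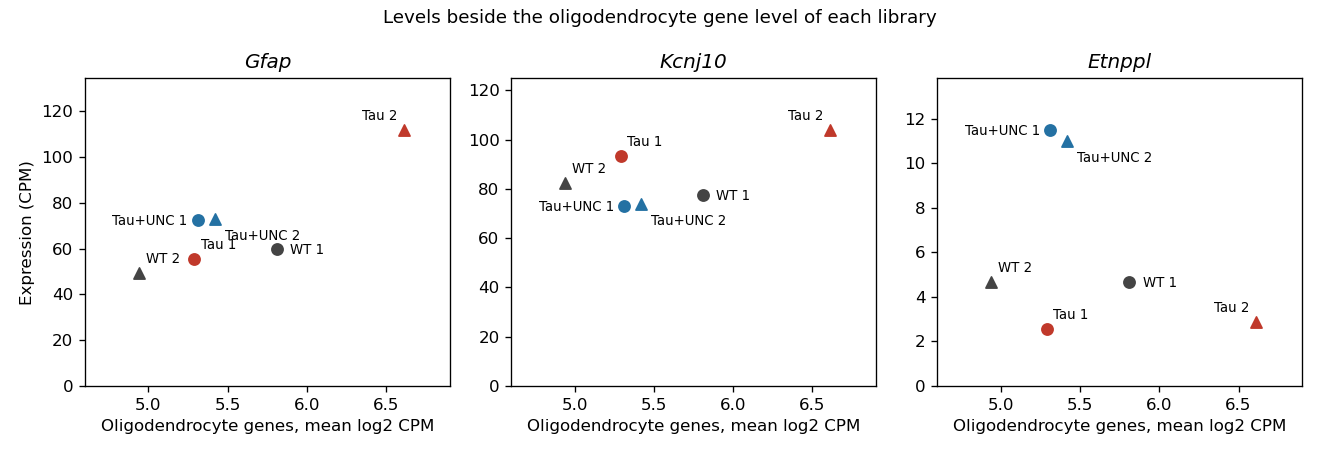
CPM of Gfap, Kcnj10 and Etnppl in each library (vertical axes, from 0) against the mean log2 CPM of 16 oligodendrocyte genes in the same library (horizontal axes), with circles for replicate 1 and triangles for replicate 2. Tau replicate 2, at 6.61 on the horizontal axis, had the highest Gfap and Kcnj10 levels, while Tau replicate 1, at 5.29, had Kcnj10 at 93.5 CPM and Gfap at 55.3 CPM.

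Since oligodendrocytes also express Kcnj10, its level was set beside that of oligodendrocyte genes such as Mobp, Mag and Myrf. The mean log2 CPM of the list was 5.81 and 4.94 in WT, 5.29 and 6.61 in Tau, and 5.31 and 5.42 in the treated Tau mice. Of the 16 genes, 6 passed the threshold upward in Tau mice and 5 passed it downward after UNC0642. Of all genes, 3.72% passed upward in the first comparison and 3.95% downward in the second. Without Tau replicate 2 the medians of the list were -0.15 and 0.12. The DESeq2 Wald test called 1 and 2 of the 16 and limma-voom 1 and 1. In the fit without that library the Kcnj10 difference after UNC0642 was -0.35. Tau replicate 1 and the 2 UNC0642 libraries had nearly the same oligodendrocyte level, from 5.29 to 5.42, and Kcnj10 levels of 93.5, 73.1 and 74 CPM. Tau replicate 1 had the female pattern and the UNC0642 libraries the male one. The part of oligodendrocyte genes in the Kcnj10 difference was not tested.

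Of 8 genes of oligodendrocyte precursors, Gpr17 rose in Tau mice, and Olig1, Sox10 and Gpr17 fell after UNC0642, in the direction of Kcnj10. That is 1 of 8 in Tau mice and 3 of 8 after UNC0642, beside 9.81% and 7.69% of all genes. All 8 had a fitted difference below 0 after UNC0642 (median -0.29). Sox10, a transcription factor of the oligodendrocyte lineage, had 8.75 and 4.88 CPM in WT, 8.12 and 12.8 in Tau, and 4.5 in both UNC0642 libraries, with a log2 difference of -1.21 after UNC0642. Olig1, of the same lineage, differed by -0.52. As each library was left out in turn, the Sox10 difference ran from -1.51 to -0.85 and that of Olig1 from -0.66 to -0.38. That of Gpr17 after UNC0642, -0.33 with all libraries, ran from -0.49 to -0.19. It was not called with library size only or by the DESeq2 Wald test. Without Tau replicate 2 the median of the list was -0.31. None of the 8 genes had an adjusted p under 0.05 after UNC0642, those of Sox10 and Olig1 being 0.353 and 0.395 (edgeR quasi-likelihood test). The part of oligodendrocyte lineage genes in the Kcnj10 difference was not tested.

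Each of the 2 genes was also measured against the 8 others within a library, which takes out any level that the 8 genes shared. Relative to the mean log2 CPM of the 8 genes, Etnppl was at -5.15 and -5.19 in WT, -6.10 and -6.11 in Tau, and -4.02 and -4.08 in the treated Tau mice. On that scale Tau differed from WT by -0.93 and the treated from the untreated Tau mice by 2.06. Kcnj10 was at -1.13 and -1.07 in WT, -0.95 and -0.97 in Tau, and -1.36 and -1.34 in the treated Tau mice. Its relative difference was 0.14 between Tau and WT and -0.39 between treated and untreated Tau mice. The 0.14 was smaller than the 0.30 of its own level because the mean of the 8 genes was higher by 0.16 in the Tau libraries. Not all 8 shared that rise: Gfap and Gjb6 differed by 0.60 and 0.38, but Aqp4, Slc1a2 and Slc1a3 by -0.022, -0.058 and -0.0024. With the median of the 8 genes as the reference, Kcnj10 differed by 0.23 between Tau and WT. The order of the groups was thus the same for both genes with and without this reference.

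**Figure D3:**
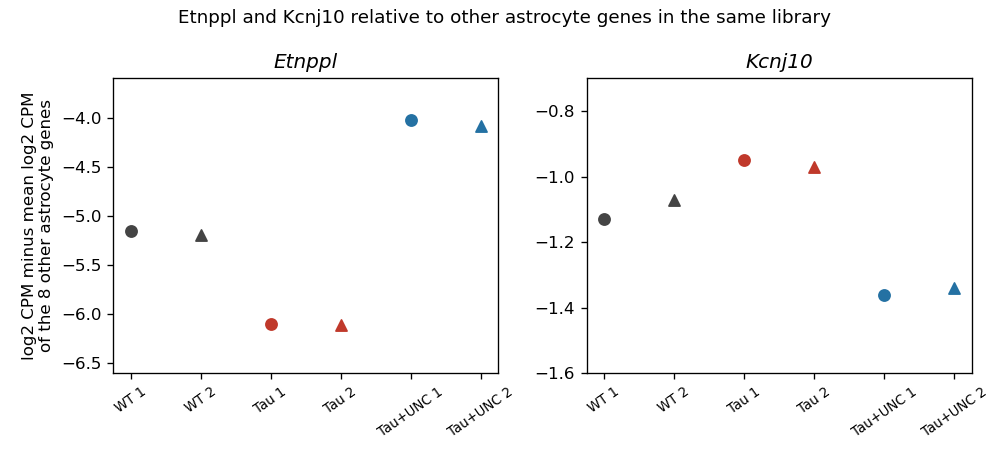
log2 CPM of Etnppl (left) and Kcnj10 (right) minus the mean log2 CPM of the 8 other astrocyte genes in each library, with circles for replicate 1 and triangles for replicate 2. The vertical axes have different ranges: Etnppl spans -6.11 to -4.02 and Kcnj10 -1.36 to -0.95, and the 2 libraries of each group lie together.

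The glutamate transporters were close to level across the groups. Slc1a2, the main glutamate transporter of the forebrain, had 3047 and 3492 CPM in WT, 3178 and 3104 in Tau, and 3368 and 3605 in the treated Tau mice. Slc1a3, the second astrocyte glutamate transporter, had 604 and 602, 610 and 594, and 616 and 637 CPM in the same order, with the highest library 1.07-fold above the lowest. The fitted log2 differences for Slc1a2 were -0.058 between Tau and WT and 0.15 after UNC0642, and those for Slc1a3 were -0.0024 and 0.057. None of the 4 passed the threshold. Without the library labelled WT replicate 1 the differences between Tau and WT were -0.16 and -0.0037. Slc1a2 shares 189 exon bases with the antisense gene Gm13872, which had 71 to 240 counts, and the strand setting of the counting is not given in the sources used here. With the sex-linked term, the Slc1a2 difference after UNC0642 was 0.35 and passed the threshold.

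Aqp4, the water channel of the astrocyte endfeet on blood vessels, had 129 and 143 CPM in WT, 130 and 138 in Tau, and 129 and 122 in the treated Tau mice. Its fitted log2 differences of -0.022 and -0.10 did not pass, and the first was -0.10 without the library labelled WT replicate 1. The connexins Gja1 and Gjb6 form the gap junctions that couple astrocytes. Gja1 had 179 and 173 CPM in WT, 168 and 193 in Tau and 180 and 184 in the treated Tau mice, with overlapping WT and Tau libraries and fitted log2 differences of 0.032 (0.053 without the library labelled WT replicate 1) and 0.016.

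Gjb6 was higher in Tau than in WT mice and about as high in treated as in untreated Tau mice. It had 39.7 and 48 CPM in WT, 56.7 and 57.4 in Tau, and 53.6 and 54.7 in the treated Tau mice, and the lowest value was that of the library labelled WT replicate 1. The log2 difference was 0.38 (SE 0.10) between Tau and WT, -0.075 after UNC0642 and 0.30 (SE 0.10) between UNC0642-treated Tau and WT mice. Without the library labelled WT replicate 1, the differences from WT were 0.24 and 0.17 and neither passed the threshold. The difference of treated Tau mice from WT also lost its call without UNC0642 replicate 2, where it was 0.29.

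Gfap, the intermediate filament protein that rises in reactive astrocytes, differed most between libraries of the same group. It had 60 and 49.4 CPM in WT, 55.3 and 112 in Tau, and 72.7 and 73.1 in the treated Tau mice. The Tau libraries lay on both sides of the treated ones, and Tau replicate 1 lay between the WT libraries. The log2 difference between Tau and WT mice was 0.60 (SE 0.25), which passed the threshold, 0.74 without the library labelled WT replicate 1, 0.47 without WT replicate 2 and 0.021 without Tau replicate 2. The last 2 did not pass, nor did the difference with library size only, the replicate block, the DESeq2 Wald test, limma-voom or only the 2 groups compared. After UNC0642 it was -0.19 (SE 0.24) with all libraries and 0.39 without Tau replicate 2, so its sign depended on the library with the highest oligodendrocyte and striatal gene levels. The part of those levels in the Gfap value was not tested.

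Aldh1l1, a folate enzyme used to label astrocytes, and S100b, a calcium-binding protein, were, like Kcnj10, highest on average in Tau mice, with smaller differences. Aldh1l1 had 57 and 58.5 CPM in WT, 67.6 and 70.9 in Tau, and 61.5 and 64.4 in the treated Tau mice, with 3 separate groups. Its difference of 0.26 between Tau and WT fell just short of the 1.2-fold threshold, as that of Kcnj10 lay just inside it, and was 0.24 without the library labelled WT replicate 1, and its difference after UNC0642 was -0.14. S100b had 120 and 112, 125 and 135, and 129 and 115 CPM in the same order, with log2 differences of 0.16 (0.21 without the library labelled WT replicate 1) and -0.089. The S100b libraries of treated and untreated Tau mice overlapped.

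Over the 10 genes, 3 passed the threshold upward in Tau mice (Gfap, Gjb6 and Kcnj10) and 1 downward (Etnppl), in a comparison in which 9.81% of all genes tested passed it, 3.72% upward and 6.10% downward. After UNC0642, Etnppl passed upward, Kcnj10 passed downward and 0 of the 8 others passed, where 7.69% of all genes did, 3.73% upward and 3.95% downward. Between UNC0642-treated Tau and WT mice, Etnppl and Gjb6 passed upward, against 9.47% of all genes, 3.77% upward and 5.69% downward. The 2 groups did not overlap for 5, 7 and 8 of the 10 genes in these 3 comparisons, while 43.2%, 41.3% and 44.4% of all genes did not overlap. The comparisons share libraries and are not independent of each other. The median log2 difference of the 8 other genes was 0.10 between Tau and WT, -0.082 after UNC0642 and 0.082 between UNC0642-treated Tau and WT mice, beside medians of -0.00011, -0.0023 and -0.012 over all genes.

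**Figure D4:**
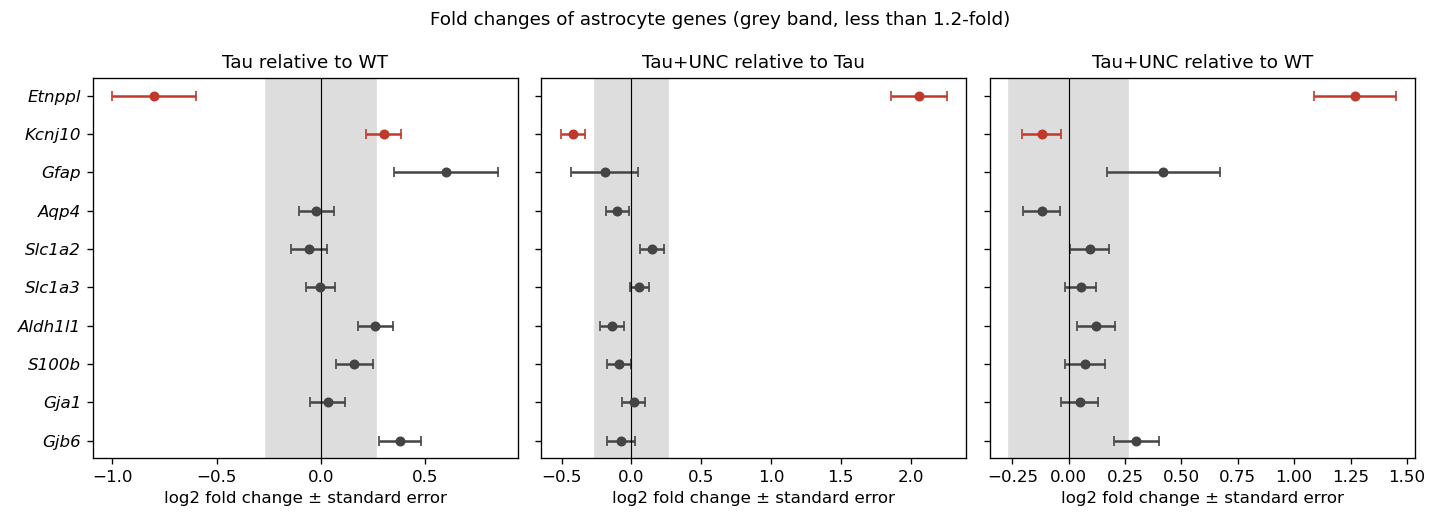
Fitted log2 fold change of each of the 10 astrocyte genes (points) with its standard error (bars) for Tau relative to WT, Tau+UNC relative to Tau and Tau+UNC relative to WT, with Etnppl and Kcnj10 in red and a grey band for changes of less than 1.2-fold. The 3 horizontal axes have different ranges. In the middle panel Etnppl, at 2.06, and Kcnj10, at -0.42, lie outside the band and the other 8 genes within it.

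Levels can be compared between genes only per length. Per kilobase of annotated exon, the mean over the 6 libraries was 251 CPM for Slc1a2, 82.6 for S100b, 71.5 for Slc1a3, 21.2 for Aqp4, 19.3 for Gjb6, 17.5 for Gja1, 16.7 for Gfap, 15.6 for Kcnj10, 14 for Aldh1l1 and 0.752 for Etnppl. The ranges over the libraries overlapped between each pair of neighbours in that order from Aqp4 down to Aldh1l1. Etnppl was far below the rest, at 0.307 to 1.39 CPM per kilobase, so the gene with the largest change was also the one with the fewest counts.

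A wider list of 50 further astrocyte genes was examined to see whether Etnppl and Kcnj10 moved with other genes of the cell type. Like the other gene lists, it was chosen with earlier results of these data known. Counts of its genes beside the share of all genes are thus a description and no support for a change. In Tau mice 5 passed the threshold upward (Mt1, Mt2, Mt3, F3 and Fam107a) and 2 downward (Slc6a11 and Grin2c), and after UNC0642 1 passed upward (Grin2c) and 6 downward (Hepacam, Mt1, Mt2, Slc7a10, Lcat and Il33). These are 7 of 50 in each comparison, beside 9.81% and 7.69% of all genes. By edgeR's quasi-likelihood test, 14 of the 50 in the first comparison and 8 in the second had an unadjusted p under 0.05, beside 12.4% and 8.86% of all genes, and none had an adjusted p under 0.05, which 0.157% and 0.0196% of all genes had (0.216% between treated Tau and WT mice). The DESeq2 Wald test gave 3 and 0 by adjusted p, and limma-voom 0 and 0. The medians of the list were 0.08 and -0.10. In Tau mice 37 of the 50 had a fitted difference above 0 and 13 below, and after UNC0642 11 were above 0 and 39 below. Most of the 50 thus had the sign of Kcnj10, which was the opposite of that of Etnppl. Both comparisons use the same Tau libraries, so opposite signs in them are not independent. The medians were also small beside the effect of scaling. With library size only, the median over all genes moved by -0.07 in the first comparison. With that scaling 3 of the list passed upward and 4 downward in Tau mice, and 1 and 4 after UNC0642. As single libraries were left out, the median of the list ran from 0.051 to 0.12 in Tau mice and from -0.12 to -0.069 after UNC0642.

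The metallothioneins Mt1 and Mt2, which bind zinc and copper, had a course like that of Kcnj10. Mt2 had 4.1 and 4.41 CPM in WT, 7.9 and 8.93 in Tau, and 5.33 and 4.81 in the treated Tau mice, with log2 differences of 0.98 (SE 0.19) and -0.73 (SE 0.19). Mt1 differed by 0.57 in Tau mice and by -0.32 after UNC0642. Both were called in Tau mice whichever library was left out, with differences of 0.92 for Mt2 and 0.68 for Mt1 without the library labelled WT replicate 1. The lower Mt2 after UNC0642 was not called with the sex-linked term, and the lower Mt1 after UNC0642 was not called without Tau replicate 2 or without UNC0642 replicate 2. Hepacam, a cell adhesion protein of astrocyte contacts, had 29.6 and 30.3 CPM in WT, 34.8 and 36.8 in Tau, and 27.2 in both UNC0642 libraries. Its difference after UNC0642 was -0.39 (SE 0.10), called in all 6 fits without a library and not with the sex-linked term.

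Grin2c, an NMDA receptor subunit found in astrocytes, followed the direction of Etnppl on a smaller scale, with 35.6 and 31.6 CPM in WT, 26.8 and 27.8 in Tau, and 31.9 and 35.2 in the treated Tau mice. Its log2 differences were -0.30 and 0.30, and neither was called with the sex-linked term. The Tau difference was not called without the library labelled WT replicate 1, where it was -0.21, or without Tau replicate 1, and the UNC0642 difference not without Tau replicate 1 or UNC0642 replicate 2. Fam107a, an actin-binding stress-response gene, rose in Tau mice from 214 and 287 CPM to 347 and 399 and had 410 and 359 CPM after UNC0642. Its difference in Tau mice was 0.57, and 0.37 without the library labelled WT replicate 1. Slc6a11, a GABA transporter, had 138 CPM in the library labelled WT replicate 1 and 78.6 to 88.5 in the other 5, and its difference in Tau mice was -0.046 without that library.

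**Figure D5:**
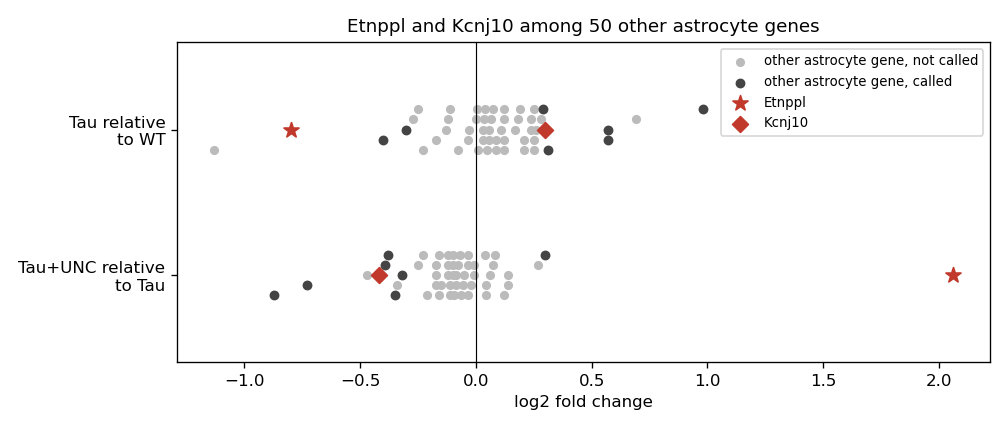
log2 fold changes (horizontal axis) of 50 further astrocyte genes, spread vertically for legibility, in Tau relative to WT and Tau+UNC relative to Tau, with dark points for genes past the threshold of 1.2-fold and a p-value under 0.05. Etnppl (star) at 2.06 lies beyond all 50 after UNC0642, whose values run from -0.87 to 0.30, and Kcnj10 (diamond) lies within their range in both comparisons.

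Of 19 genes of phosphoethanolamine metabolism, 0 rose and 1 fell in Tau mice, and 0 were called after UNC0642, beside 9.81% and 7.69% of all genes, by edgeR's quasi-likelihood test. With no fold threshold, 2 and 0 had an unadjusted p under 0.05. The DESeq2 Wald test called 0 and 0 of the 19, and limma-voom 1 and 0. The gene that fell was Phykpl, the closest relative of Etnppl, which acts on phosphohydroxylysine. It had 13.6 and 13.1 CPM in WT, 10.4 and 11.2 in Tau, and 12.5 and 12.4 in the treated Tau mice, with log2 differences of -0.31 and 0.21, and its call was lost in every fit that left out a library. Its signs were those of Etnppl. Etnk2, an ethanolamine kinase that makes phosphoethanolamine, had 6.94 and 11 CPM in WT, 7.97 and 7.67 in Tau, and 9.47 and 10.8 in the treated Tau mice, with differences of -0.20 and 0.38 that did not pass. The first was -0.49, and called, without the library labelled WT replicate 1 and 0.18 without WT replicate 2.

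Among 25 genes of potassium, glutamate and GABA handling, Kcnk1 rose in Tau mice, and Slc1a5, Slc38a5, Slc6a11 and Gjb2 fell. After UNC0642, Kcnj6 and Slc6a9 fell and none rose, so that 5 and 2 of the 25 were called beside 9.81% and 7.69% of all genes. Without Tau replicate 2 or without UNC0642 replicate 2, none of the 25 was called after UNC0642, and Gjb2 was not called in Tau mice without WT replicate 2 or Tau replicate 2. Kcnj16, whose product pairs with that of Kcnj10 in a shared channel, had 34.7 and 29.7 CPM in WT, 31 and 30.7 in Tau, and 29.5 and 27.3 in the treated Tau mice, with log2 differences of -0.064 and -0.12 that did not pass. Kcnk1, a potassium leak channel, went from 51.6 and 51.3 CPM in WT to 74.5 and 84.7 in Tau (edgeR quasi-likelihood test, adjusted p = 0.0411) and had 74.7 and 78.2 CPM after UNC0642. Like Gjb6, and unlike Kcnj10, it thus had about the same level in treated and untreated Tau mice. The differences of Slc1a5, Slc38a5 and Slc6a11 in Tau mice were not called without the library labelled WT replicate 1.

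Of 15 genes of the endfoot complex that anchors Aqp4 and Kcnj10 channels at blood vessels or of the vessel wall itself, 0 rose in Tau mice and 3 fell, namely Sgcd, Agrn and Cldn5, beside 9.81% of all genes called in that comparison. The fall of Sgcd was not called without the library labelled WT replicate 1 (-0.25 in place of -0.52) or Tau replicate 2, and that of Agrn not without WT replicate 2 or Tau replicate 2. After UNC0642, Cldn5 rose and Hepacam fell, with adjusted p of 0.458 and 0.371 (edgeR quasi-likelihood test), beside 7.69% of all genes called. Neither was called with the sex-linked term, and Cldn5 not without UNC0642 replicate 2. Cldn5 is a tight junction protein of endothelial cells. It had 26.1 and 18.5 CPM in WT, 10.5 and 10.3 in Tau, and 13.9 and 16 in the treated Tau mice (adjusted p = 0.0467 for Tau against WT, edgeR quasi-likelihood test), and its difference in Tau mice was -1.10, or -0.84 without the library labelled WT replicate 1. Of 10 endothelial genes, Cldn5 among them, 5 fell in Tau mice. The summed level of all 10 was 217 to 224 CPM in WT, 159 to 167 CPM in Tau, and 159 and 207 CPM in the treated Tau mice. The part of the endothelial genes in the Cldn5 value was not tested.

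Of 36 genes of reactive astrocytes, 29 passed the filter. In Tau mice Fkbp5, Ptgs2 and Emp1 rose and Cd44, Cp, Clcf1 and Sphk1 fell. After UNC0642, Cd44, Cp, H2-T23, H2-D1, Sphk1 and Ptgs2 rose and Vim fell. These are 7 of 29 in each comparison, beside 9.81% and 7.69% of all genes. Genes of the list were called in both directions in each comparison, with medians of -0.093 and 0.073. Without the library labelled WT replicate 1, 6 were called higher and 2 lower in Tau mice and the median was 0.091. With the sex-linked term the calls in Tau mice were again 6 and 2, and the medians 0.081 and -0.074. In Tau mice Cp lost its call in 5 and Emp1 in 4 of the 6 fits without a library, and Sphk1 without the library labelled WT replicate 1 or Tau replicate 2. After UNC0642, H2-T23, H2-D1 and Vim were not called with the sex-linked term, H2-T23 not without Tau replicate 1 or UNC0642 replicate 1, and Vim not in 3 of the 6 fits without a library. Cd44, a hyaluronan receptor, had 4.81 and 7.85 CPM in WT, 3.72 and 1.95 in Tau and 4.56 and 5.21 in the treated Tau mice, lowest in Tau mice as Etnppl was, but with more spread within a group and no level above WT after UNC0642. Its difference of -1.13 in Tau mice was -1.43 without the library labelled WT replicate 1 and was not called without WT replicate 2. Fkbp5, a stress-hormone response gene, and Ptgs2 were called in Tau mice whichever library was left out. Ptgs2, a prostaglandin synthase that neurons also express, rose in both comparisons, from 19.9 and 21.8 CPM in WT to 32.2 and 36.2 in Tau (adjusted p = 0.0453, edgeR quasi-likelihood test) and 43.6 and 44 after UNC0642, the second of which was not called without Tau replicate 1.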

How the data were processed

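RNA of the PFC was sequenced in 6 libraries. Per the labels and the methods, the authors depleted ribosomal RNA, made strand-specific libraries, trimmed reads with Cutadapt, aligned them with TopHat2 to RefSeq mRNAs (mm10 in the submitters' processing notes) and counted them per gene with featureCounts. The deposited values are raw counts without normalization. In WT replicate 2 and Tau replicate 2, 26 names turned into dates were joined by position.

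In R 4.3.3, edgeR 4.0.16 (with limma 3.58.1) was run on the counts: filterByExpr (minimum count 10, minimum total 15), TMM factors of 0.966 to 1.04, and a quasi-likelihood model with 1 mean per group on all 6 libraries (3 residual degrees of freedom, biological coefficient of variation 12.3%). The study's threshold was used for calls, an unadjusted p below 0.05 with at least 1.2-fold change. Benjamini-Hochberg adjustment covered all 20409 genes. By adjusted p under 0.05, 32 genes were called in Tau against WT and 4 in UNC0642-treated against vehicle-treated Tau. In UNC0642-treated Tau against WT, 44 were called. The members, chosen on these values, are given no adjusted p. CPM use TMM-scaled library sizes, and relative levels a prior count of 2. A floor of 3 counts was 0.104 to 0.176 CPM. Positions and lengths come from GENCODE M21. The fit was checked on simulated counts. Figures were drawn with matplotlib 3.10.9.

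The members and gene lists were chosen with earlier results of these data known. Named were all members, of each other list the genes with an adjusted p under 0.05 and up to 3 called genes per direction with the smallest p, some relatives (Kcnj16, Phykpl, Etnk2), Xist, Ddx3y, Mapt, Prnp, Ehmt1, Ehmt2, and the 5 nearest profiles to Etnppl and to Kcnj10. Other called genes of the lists, Mag and the neighbouring genes were named after their values were seen. Alternatives were DESeq2 1.42.0 size factors or its Wald test, library size only, no filter or 10 counts in every library, limma-voom, only the groups compared, a replicate block, a term for the sex-linked pattern, other thresholds, other reference genes, and fits without each library. Replicate numbers come from the labels and mark different mice, and nothing in them pairs the groups.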

Additional observations from a re-analysis of the deposited data

How the results depend on the processing

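The fold changes of Etnppl kept their direction in every alternative run, from -0.87 to -0.71 between Tau and WT, from 1.97 to 2.14 after UNC0642 and from 1.24 to 1.30 between UNC0642-treated Tau and WT as single libraries were left out. For Kcnj10 the same 3 ranges were 0.23 to 0.37, -0.50 to -0.35 and -0.17 to -0.08. The sex-linked term gave -0.34 for Kcnj10 after UNC0642, and library size only gave 0.23 between Tau and WT, which did not pass.

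With other reference genes (the median of the 8 genes, then the mean of the 50 further astrocyte genes), Etnppl was at -0.84 and -0.86, 2.12 and 2.14, and 1.28 and 1.28 in the 3 comparisons, and Kcnj10 at 0.23 and 0.21, -0.33 and -0.31, and -0.10 and -0.10. Of the further astrocyte genes, 0, 0 and 0 were called by adjusted p and 1, 2 and 3 at 1.5-fold. After UNC0642 the DESeq2 Wald test and limma-voom called 4 each. Without single libraries the counts ran from 5 to 15, 3 to 6 and 5 to 9.

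Over all genes, 2003, 1569 and 1932 were called, 32, 4 and 44 by adjusted p (656, 483 and 733 without a filter), and 1130, 855 and 784 at 1.5-fold. The DESeq2 Wald test called 1332 between Tau and WT. Library size only moved the share of higher calls from 37.9% to 19.2%, 48.6% to 58.6% and 39.9% to 26.6%, with shifts of the median of at most 0.07, and the sex-linked term moved the first to 50.3%.

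Of the other named genes that were called, 3 changed sign: Kcnj6 (0.09) and P2ry12 (0.17) after UNC0642 with the sex-linked term, and Cldn11 between Tau and WT, which ran from -0.049 without Tau replicate 2 to 1.35 without Tau replicate 1. Differences that were not called also changed sign, among them Kcnj16 between Tau and WT (0.049 without WT replicate 1), Etnk2 (0.18 without WT replicate 2) and Gfap after UNC0642 (0.39 without Tau replicate 2). The cause was not tested.

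Same-numbered libraries did not deviate together (correlations of -0.0344, -0.0212 and -0.00335). With the replicate block, 1792, 1404 and 1755 genes were called, Etnppl was at -0.80, 2.06 and 1.27 and Kcnj10 at 0.30, -0.42 and -0.12, both with the same calls, and Gfap lost its call between Tau and WT. With 2 mice per group, an exact permutation test of a single gene cannot reach 0.05. Counts of 50 to 250 limited the precision for Etnppl.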

Other observations

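The genes whose profile over the 6 libraries lay nearest to that of Etnppl were 4933413L06Rik, Zfp991, Gm47665, Zfp984 and Cpne1, with root mean square differences of mean-centred log2 CPM from 0.22 to 0.28. All were low: 4933413L06Rik, an antisense transcript on chromosome 13, had 1.22 and 1.41 CPM in WT, 0.608 and 0.515 in Tau, and 2.37 and 2.87 in the treated Tau mice. Zfp984, a zinc finger gene on chromosome 4, had 0.71 and 0.898, 0.322 and 0.286, and 2.37 and 2.16 CPM in the same order. Zfp991 lies on the same chromosome, and Cpne1 had at most 0.533 CPM in any library. Gm47665 had 10 and 14 counts in the treated Tau mice and 2 to 6 in the other libraries. Cpne1 had 9 and 11 counts in the treated Tau mice and 1 to 5 elsewhere. Gm47665 and Cpne1 thus passed the filter on low counts only through the group where they were high, and their likeness to Etnppl is partly set by that filter. The nearest profiles were chosen from all genes tested, so their likeness is a description.

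The genes nearest to Kcnj10 were Csf3r, Hepacam, Npy, Dbt and Pkp4, with differences from 0.024 to 0.052. Hepacam was the only one of the 5 on the list of further astrocyte genes. Npy, a neuropeptide of interneurons, had 59.4 and 59.6 CPM in WT, 69.4 and 82.3 in Tau, and 55.4 and 55.6 in the treated Tau mice. Pkp4, a junction protein, had 234 and 237, 266 and 312, and 225 and 234 CPM.

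Genes near the 2 loci were looked at after the values were seen. Within 1000000 bases of Etnppl, 19 genes were tested and 3 were called between Tau and WT, 1 after UNC0642 (Rpl34, a ribosomal protein gene, 0.59 on the log2 scale) and 3 between UNC0642-treated Tau and WT. Within the same distance of Kcnj10, 41 were tested and 3, 0 and 2 were called. Over all genes, 9.81%, 7.69% and 9.47% were called in the same 3 comparisons. Kcnj9, a neighbour that encodes another inward rectifier potassium channel, differed after UNC0642 by 0.052 on the log2 scale and was not called.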
